A study of Mus musculus with 16 samples.

Results

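The spinal cords of the injured mice were compared with each other within their treatment groups, to describe which genes were high or low together from mouse to mouse and which cell types or tissues they mark. The members were the 14 injured mice of the 16 mice sequenced, 7 in the SCI + Atorvastatin group and 7 in the SCI + Vehicle group. Genes with at least 50 counts in all 14 mice were used, which left 12306 of 24411 gene symbols. For each gene the mean of its own group was subtracted from the log2 CPM (counts scaled to library size, CPM, after TMM normalization) of each mouse, so the residuals hold differences among mice that received the same treatment, and the treatments are not contrasted.

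All injured mice were female C57BL/6J mice, 12 wk old per the labels, with a lateral compression of the thoracic cord to a gap of 0.25 mm. Atorvastatin, an inhibitor of the rate-limiting enzyme of cholesterol synthesis, was given daily at 10 mg/kg for 4 wk from 2 wk after injury, and the vehicle group received the carrier (DMSO, PEG400, Tween 80 and saline). Total RNA was taken 6 wk after injury per the labels from a 5 mm section around the lesion, after perfusion with saline. No label or method states that cells were sorted, so each library mixes cord, scar and any attached tissue.

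A compressed cord heals into a scar in layers. Fibroblasts and meningeal cells lay down collagen in the core, macrophages and microglia take up myelin lipid there, reactive astrocytes surround the core, and Schwann cells can enter the cord and form peripheral myelin. Neurons and oligodendrocytes fill the spared tissue around it. In bulk tissue, fewer cells of a type and less RNA per cell cannot be told apart. CPM are shares of a library, so a larger share of one tissue leaves a smaller share for the others.

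Libraries held 20143003 to 25579826 counts in the SCI + Atorvastatin group and 14823292 to 23933435 in the SCI + Vehicle group. The lowest total was that of SCI + Vehicle replicate 4. TMM factors lay between 0.978 and 1.02. The genes used took 98.1% to 99.2% of the counts of a mouse. The residual standard deviation (SD) of a gene had a median of 0.24 on the log2 scale, and counting error made up a median of 5.20% of its square. That share treats reads as independent molecules, which reads without molecular identifiers are not, so it covers counting error only. The mice are separate animals, and p-values set a relation between genes against the spread between mice.

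Several libraries stood apart in tissue content. Prx, the periaxin gene of myelinating Schwann cells, lies at chr7:27499305-27520041 (GRCm38). Its level was 46.0 to 90.8 CPM in the SCI + Atorvastatin mice, with a median of 87.0 CPM, and 44.5 to 60.1 CPM in 5 of the SCI + Vehicle mice. It was 4.83 CPM in SCI + Vehicle replicate 4 and 0.912 CPM in SCI + Vehicle replicate 7, below all the other injured mice. The cords of the Uninjured Control group, which enter no correlation, had 158 and 103 CPM of Prx. Because of these low counts Prx was not among the genes used, and values without SCI + Vehicle replicates 4 and 7 are given for the main lists.

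Skeletal muscle RNA set other libraries apart. Ttn (chr2:76703980-76982557), the giant spring protein of the sarcomere, was 4717 CPM in SCI + Atorvastatin replicate 2, 1402 CPM in SCI + Vehicle replicate 3 and 288 CPM in SCI + Atorvastatin replicate 4. In the remaining 11 mice it was 13.6 to 71.4 CPM. The 14 genes of the skeletal muscle list summed to 4575, 1080 and 245 CPM in the same 3 mice, in the same order, and to 10.9 to 48.0 CPM in the others. SCI + Vehicle replicate 3 also had the highest sum of 11 genes of dorsal root ganglion neurons, at 144.9 CPM against 30.6 to 55.5 CPM in the other 13 injured mice. Scn10a, a sodium channel of pain-sensing ganglion neurons, was 17.4 CPM there and at most 2.09 CPM elsewhere. The Schwann cell and peripheral myelin list summed to 189 and 211 CPM in SCI + Vehicle replicates 7 and 4 and to 401 to 669 CPM in the others.

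**Figure D1:**
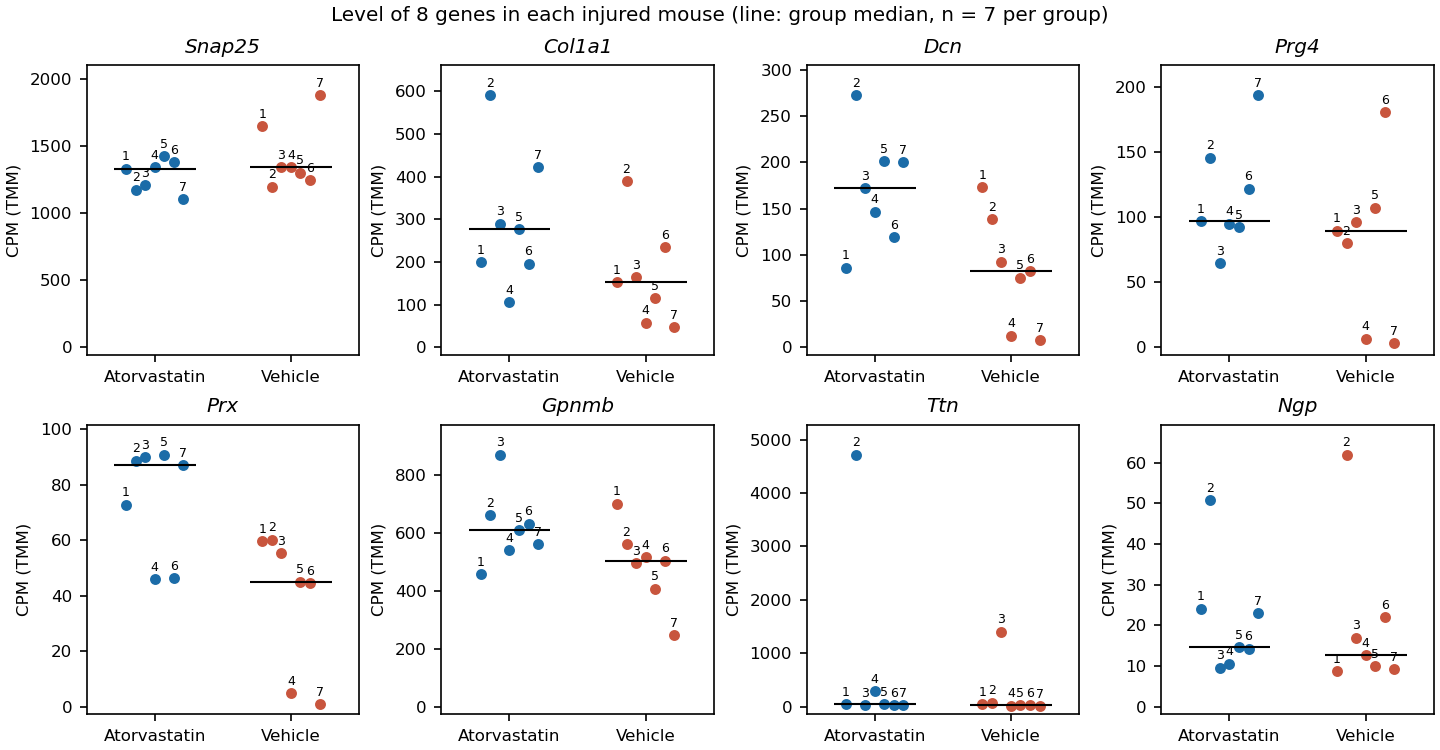
CPM after TMM normalization (vertical axes, linear) of 8 genes in each injured mouse, with replicate numbers beside the points and a line at the median of the 7 mice of a group. SCI + Vehicle replicates 4 and 7 lie lowest for Col1a1, Dcn, Prg4 and Prx, Ttn reached 4717 CPM in 1 mouse, and Ngp was highest in SCI + Vehicle replicate 2.

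The genes that varied most among mice fell into 2 blocks. A residual SD of 1 or more on the log2 scale was found for 23 genes, with the highest value at 2.54 for Ttn. Of these, 10 correlated with Ttn at r of 0.8 or more, Ttn included. They were Neb, Myh7, Nrap, Mybpc1, Eno3, Tpm2, Casq1, Actn2 and 3425401B19Rik, most of which encode parts of the sarcomere or of the calcium store of muscle fibers. Another 11 correlated with Col1a1 at r of 0.7 or more and were connective tissue genes such as Dcn, Col3a1, Mgp, Igf2, Igfbp6, Efemp1 and Prg4, together with the antigen presentation gene H2-Aa. The other 2 were Ankrd23, a muscle gene just below the limit at r = 0.796, and the neutrophil gene S100a9. These limits of r were chosen after the values were seen.

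Dcn encodes decorin, a proteoglycan that binds collagen fibrils. It was 86.1 to 272 CPM in the SCI + Atorvastatin mice (median 172) and 75.4 to 173 CPM in 5 SCI + Vehicle mice, but 12.5 CPM in SCI + Vehicle replicate 4 and 8.08 CPM in replicate 7. Prg4, the lubricin gene of joint and membrane surfaces, was 64.6 to 194 CPM in the SCI + Atorvastatin group, 80.1 to 181 CPM in the same 5 SCI + Vehicle mice, and 6.80 and 3.17 CPM in replicates 4 and 7. Both genes thus differed more than 10-fold inside 1 treatment group, and the 2 low mice were those with little Prx.

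The first principal component of the residuals set genes of the general neuron and inhibitory interneuron lists against those of the fibroblast list. Their median r with it was 0.71, 0.74 and -0.86. It was 0.59 for Hox groups 9 and 10, 0.48 for general astrocyte genes and 0.40 for Hox groups 4 to 8. For excitatory interneuron genes it was 0.31, and for motor neuron genes 0.0002. The first component (PC1) held 22.8% ± 3.40 (jackknife SE over the 14 mice) of the residual variance, the second 13.2% ± 1.09 and the third 10.95% ± 2.30. PC4 and PC5 held 8.12% ± 1.36 and 7.39% ± 0.974, and an even split over the 12 dimensions left after the group means would be 8.33%. The sign of PC1 was set so that the neuronal gene Snap25 is positive. Scores reached 36.7 for SCI + Vehicle replicate 7 and 16.6 for replicate 4, and -26.9 and -16.9 for SCI + Vehicle replicates 1 and 2. In the SCI + Atorvastatin group they ran only from -10.8 for replicate 2 to 10.4 for replicate 1. The extremes of PC1 were therefore all SCI + Vehicle mice. Recomputed without replicates 4 and 7, the first component held 19.4%, and its genes are not compared here with those of PC1.

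**Figure D2:**
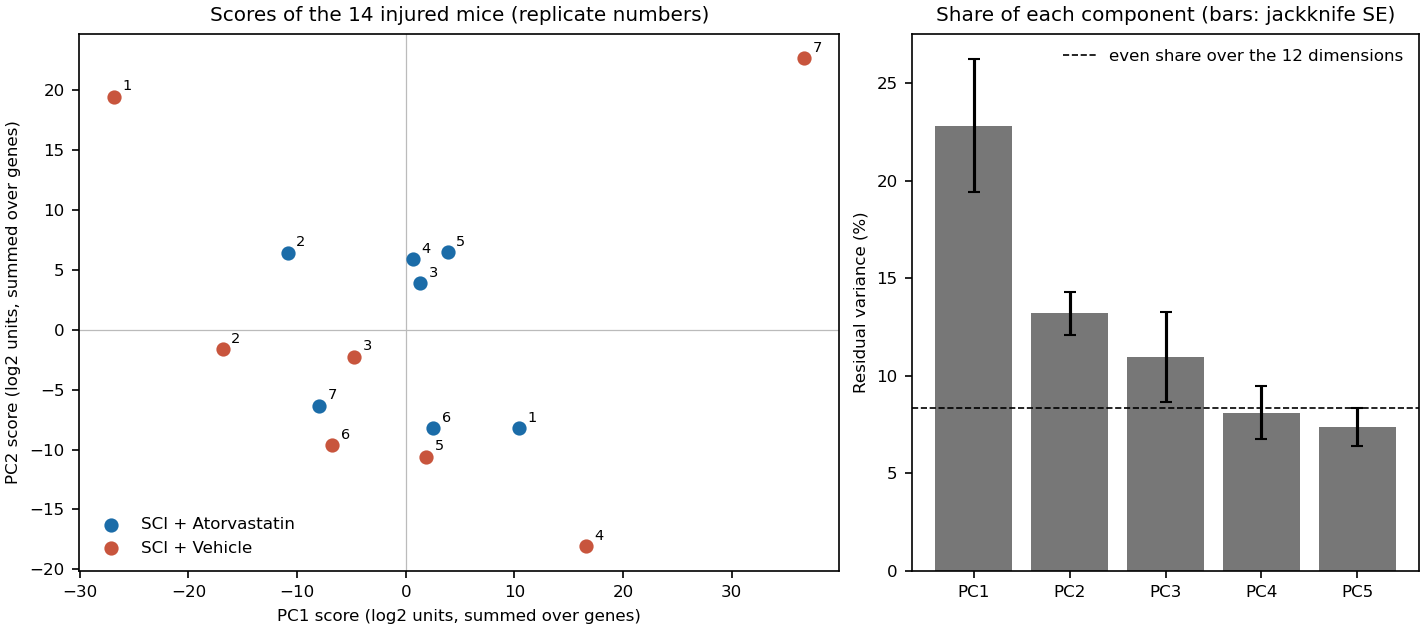
Left, scores of the 14 injured mice on PC1 and PC2 of the within-group residuals, with replicate numbers. Right, percent of residual variance on each of 5 components with jackknife SE and the even share as a dashed line. SCI + Vehicle replicate 7 lies at the positive end of PC1 and replicate 1 at the negative end, and PC1 holds 22.8%.

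The negative end of PC1 was led by Prg4, Dcn, Col3a1, Mgp, Igfbp6, Efemp1, Igf2, Ttn, Itih2 and Islr. Mgp, an inhibitor of calcification made by fibroblasts and vessel walls, correlated with PC1 at r = -0.94 within the SCI + Atorvastatin mice and r = -0.96 within the SCI + Vehicle mice. For Dcn the values were -0.84 and -0.96. Ttn loaded there through its large spread, with r = -0.40 over the 14 mice. The positive end was led by Gm13375, Lbx1, Adra1d, C1qtnf4, Phospho1, Gm13889, Dlk1, Clec2l, Adra2c and Zbtb45. Lbx1 specifies dorsal interneurons and correlated with PC1 at r = 0.66 in each group, while Adra1d and Adra2c encode receptors for noradrenaline. C1qtnf4 and Gm13889 did not share their direction in strength between the groups, with r = 0.09 and -0.17 in SCI + Atorvastatin mice and 0.83 and 0.73 in SCI + Vehicle mice.

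Because components were computed on all genes, these values describe PC1 and test nothing. Components were also made in 1 group and measured in the other. The first component of the SCI + Atorvastatin mice held 24.1% of their own residual variance and 2.63% of that of the SCI + Vehicle mice. The first component of the SCI + Vehicle mice held 35.0% of their own and 2.94% of that of the SCI + Atorvastatin mice. The cosine between these 2 sets of loadings was 0.20. No value for unrelated components was computed beside these.

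Library size was not shown to move with the components. The correlation of log2 library size with PC1 was r = -0.23 (rho = 0.046), with permutation p = 0.51 (adjusted p = 0.51) and, for rho, permutation p = 0.88 (adjusted p = 0.88). Within the SCI + Atorvastatin and SCI + Vehicle groups r was 0.14 and -0.31. For PC2 r was 0.39 (rho = 0.21), with permutation p = 0.31 (adjusted p = 0.47) and, for rho, 0.48 (adjusted p = 0.72), and r within groups was 0.043 and 0.49. For PC3 r was 0.36 (rho = 0.40), with permutation p = 0.28 (adjusted p = 0.47) and, for rho, 0.17 (adjusted p = 0.52), and r within groups was -0.051 and 0.53. Without SCI + Atorvastatin replicate 3 and SCI + Vehicle replicate 4, the 2 mice farthest from the median library size, r was 0.12, 0.10 and 0.30. These were 3 relations with two-sided permutations within groups.

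Lists of cell type and program genes were then read, whose members were named without use of the components. Of 42 lists with 471 entries, 321 entries were genes used and 34 lists had at least 3 of them. The median r over the gene pairs of a list was 0.5 or more in 12 lists and below 0.1 in 6, beside a median of -0.002 over all gene pairs. Of all gene pairs, 6.63% had r of 0.5 or more. Without SCI + Vehicle replicates 4 and 7 the number of lists at 0.5 or more was 7.

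Fibroblast genes formed the most tightly linked cell type list with more than 5 genes. All 55 pairs of 11 genes were positive, with a median r of 0.78 ± 0.089 (jackknife SE), 0.75 within SCI + Atorvastatin and 0.87 within SCI + Vehicle mice. It was 0.64 without SCI + Vehicle replicates 4 and 7, below the 0.67 of the genes of lipid-laden phagocytes. The 3 meningeal barrier genes, Aldh1a2, Ptgds and Igfbp2, had a median r of 0.85 ± 0.084, 0.66 and 0.96 within the groups, and 0.66 without replicates 4 and 7. Aldh1a2, which makes retinoic acid in arachnoid and other meningeal fibroblasts, was 17.7 to 39.7 CPM in the SCI + Atorvastatin group, 22.0 to 38.5 CPM in 5 SCI + Vehicle mice, and 8.02 and 3.39 CPM in replicates 4 and 7. Between the fibroblast and meningeal lists the median r was 0.80, and 0.44 without replicates 4 and 7.

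Genes of phagocytes that have taken up lipid were also linked. All 105 pairs of 15 genes were positive, with a median r of 0.66 ± 0.086, 0.74 within SCI + Atorvastatin and 0.71 within SCI + Vehicle mice, and 0.67 without SCI + Vehicle replicates 4 and 7. Gpnmb, a lysosomal glycoprotein of foamy macrophages and activated microglia, was 457 to 871 CPM in the SCI + Atorvastatin group (median 611) and 248 to 701 CPM in the SCI + Vehicle group (median 504). SCI + Atorvastatin replicate 3 and SCI + Vehicle replicate 1 were highest, and SCI + Vehicle replicate 7 was lowest. At 516 CPM, SCI + Vehicle replicate 4 lay within the range of the mice with more collagen RNA, which it did not for Dcn. Genes of homeostatic microglia, such as Cx3cr1, P2ry12 and Tmem119, had a lower median r of 0.16 ± 0.12.

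Astrocyte genes are given as 2 lists. The 11 genes of reactive astrocytes had a median r of 0.58 ± 0.22, with all 55 pairs positive, and 13 general astrocyte genes had 0.072 ± 0.12. The values were 0.44 and 0.13 without SCI + Vehicle replicates 4 and 7. Vim, an intermediate filament of reactive glia and of fibroblasts, correlated with PC1 at r = -0.91, and Cp, the copper-binding ceruloplasmin, at r = -0.96. Gfap, the intermediate filament that defines astrocytes, correlated with it at r = -0.31 and had a residual SD of only 0.078 log2 units. Gfap was 6418 to 7534 CPM in SCI + Atorvastatin mice and 6155 to 7033 CPM in SCI + Vehicle mice. Vim, Cp, Cd44 and Steap4 are also expressed outside astrocytes, and their astrocyte share was not tested.

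The general neuronal and inhibitory interneuron lists were each linked within and opposed to the scar lists, and the motor neuron list was not. Of 105 pairs of 15 neuronal genes, 104 were positive, with a median r of 0.57 ± 0.24, 0.44 within SCI + Atorvastatin and 0.71 within SCI + Vehicle mice. The 7 genes of inhibitory interneurons had a median r of 0.59 ± 0.14. These medians were 0.43 and 0.45 without SCI + Vehicle replicates 4 and 7. Slc32a1, which loads GABA and glycine into vesicles, was 88.8 to 118 CPM in the SCI + Atorvastatin mice and 71.0 to 179 CPM in the SCI + Vehicle mice, highest in replicate 7 and lowest in replicate 1. The 6 genes of motor neurons had 0.21 ± 0.11 and 6 of excitatory interneurons 0.11 ± 0.19. The median r of motor neuron genes with fibroblast genes was 0.056, and 3 of their 6 slopes on Col1a1 were above 0. The 15 oligodendrocyte genes had 0.26 ± 0.11, and their median residual SD was 0.12 log2 units, near that of the 13 astrocyte genes at 0.12. Myelin and general astrocyte genes thus varied least among the cell type lists with more than 10 genes.

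**Figure D3:**
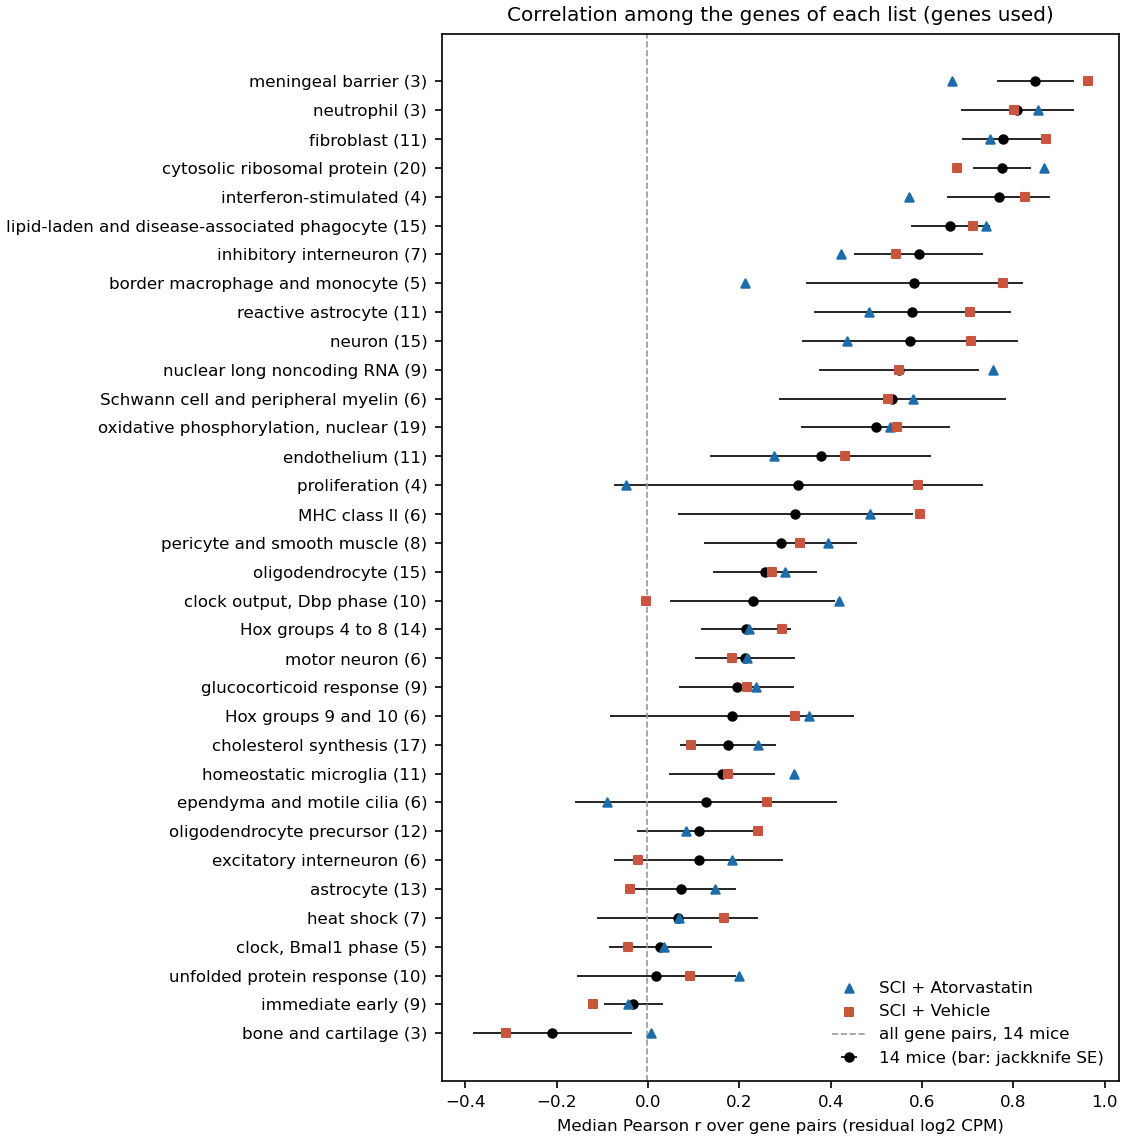
Median Pearson r over the gene pairs of each list with at least 3 genes used (number of genes in parentheses), over the 14 mice with jackknife SE (black) and within each treatment group (triangles and squares). The dashed line is the median over all gene pairs, -0.002, and the fibroblast list lies at 0.78.

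Between neuronal and fibroblast genes the median r over 165 pairs was -0.62, with no pair positive, or -0.50 for SCI + Atorvastatin and -0.70 for SCI + Vehicle mice alone. Without SCI + Vehicle replicates 4 and 7 it was -0.42. Between inhibitory interneuron and fibroblast genes it was -0.68, -0.62 and -0.69 within the groups, and -0.54 without those 2 mice. Neuronal genes were also opposed to genes of reactive astrocytes (-0.55), of lipid-laden phagocytes (-0.52) and of border macrophages (-0.59), or -0.32, -0.30 and -0.33 without them. On the other side, fibroblast genes went with those of lipid-laden phagocytes at 0.66, of border macrophages at 0.66, of Schwann cells at 0.62, of interferon responses at 0.59, of MHC class II at 0.59 and of reactive astrocytes at 0.58. Without replicates 4 and 7 these 6 values were 0.51, 0.44, 0.34, 0.48, 0.44 and 0.46. How much of the opposition comes from the sum of shares in a library was not tested.

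**Figure D4:**
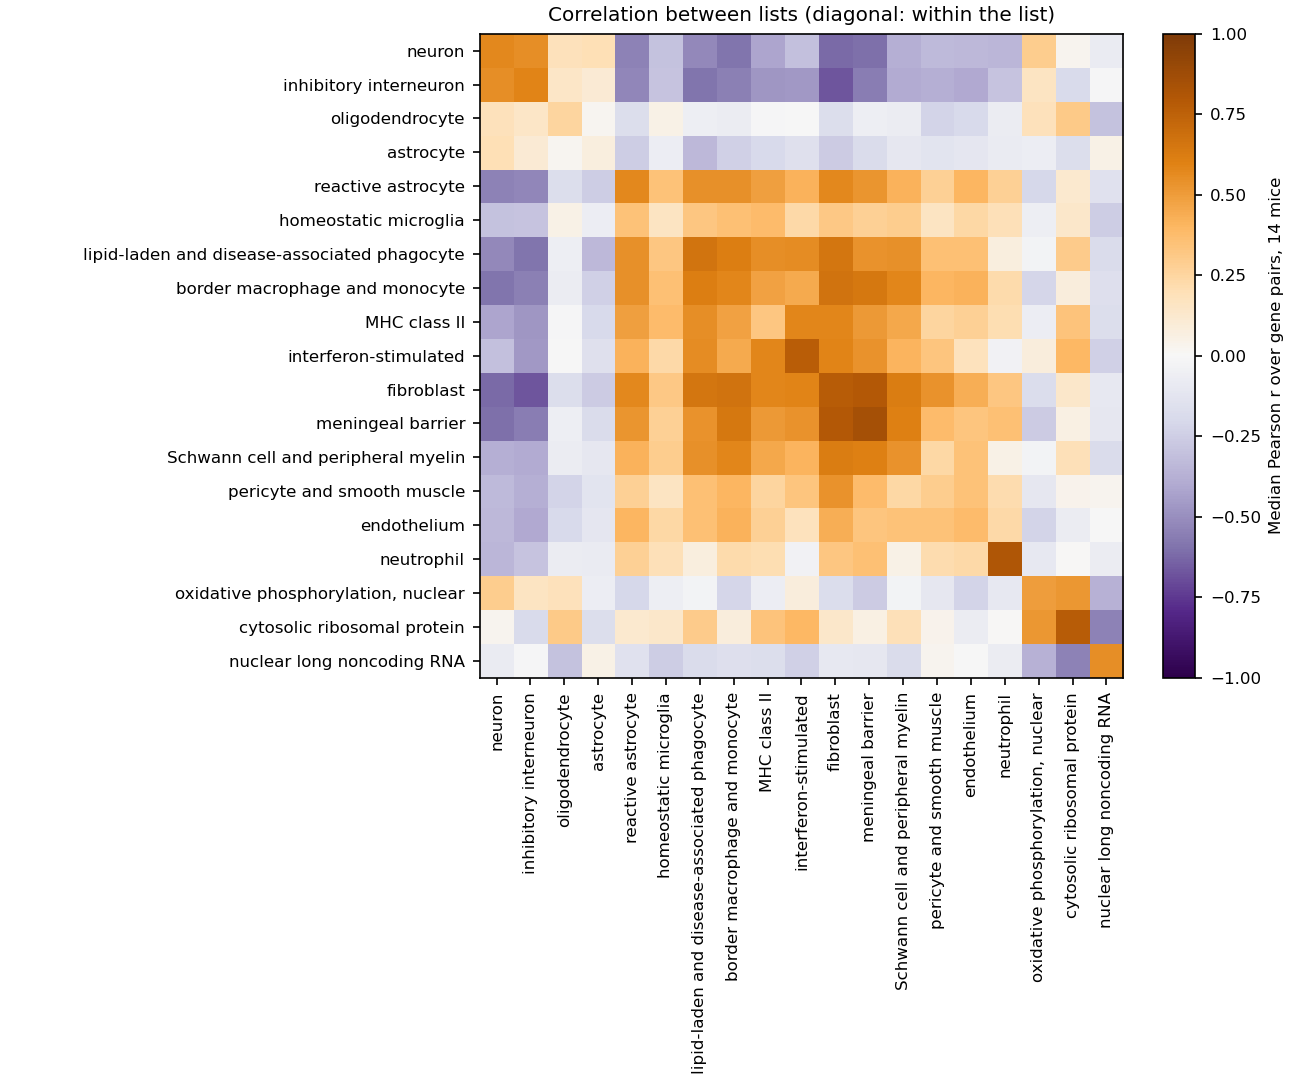
Median Pearson r between the genes of 19 lists over the 14 mice, with the value within a list on the diagonal (colour scale from -1 to 1). Lists of scar, macrophage, meningeal and Schwann cells share positive values, and the neuron and inhibitory interneuron lists are negative to them, at -0.62 for neuron against fibroblast.

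Peripheral nerve followed the scar block. Of the 13 genes of the Schwann cell and peripheral myelin list, 6 were used and had a median r of 0.53 ± 0.25. Pmp22, a peripheral myelin membrane protein that fibroblasts also express, was 133 to 212 CPM in the SCI + Atorvastatin group and 118 to 198 CPM in 5 SCI + Vehicle mice, and 63.3 and 66.8 CPM in replicates 4 and 7. Ngfr did not follow, with a median r of 0.007 with the other members, and was highest at 27.0 CPM in SCI + Vehicle replicate 3, the mouse with the most ganglion RNA. Without SCI + Vehicle replicates 4 and 7 the median r of the list was 0.22.

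Immune genes were read as several lists. The 4 interferon-stimulated genes used, Ifit3, Oasl2 and Usp18 among them, had a median r of 0.77 ± 0.11, 0.57 and 0.82 within the groups, and 0.65 without SCI + Vehicle replicates 4 and 7. The 5 genes of border macrophages had 0.58 ± 0.24, 0.21 and 0.78 within the groups, and 0.43 without these mice. Usp18, which limits interferon signalling, was 5.94 to 18.05 CPM in the SCI + Atorvastatin group and 3.81 to 12.5 CPM in the SCI + Vehicle group. The other 11 interferon genes of the list did not reach 50 counts in every mouse. MHC class II genes had a median r of 0.32 ± 0.26, with all 15 pairs positive, 0.49 and 0.60 within the groups, and 0.28 without replicates 4 and 7. Cd74, their chaperone, ran from 18.8 CPM in SCI + Vehicle replicate 4 to 123 CPM in replicate 6. The neutrophil genes S100a9, Ngp and Ltf had a median r of 0.81 ± 0.12, and 0.87 without SCI + Vehicle replicates 4 and 7. Their median r was 0.32 with fibroblast genes, 0.21 with MHC class II and -0.039 with interferon-stimulated genes, and 0.25, 0.16 and -0.12 without replicates 4 and 7.

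Ngp was 62.0 CPM in SCI + Vehicle replicate 2 and 50.8 CPM in SCI + Atorvastatin replicate 2, and 8.78 to 24.1 CPM in the other 12 mice. Alas2, the first enzyme of heme synthesis in red cell precursors, was also highest in SCI + Vehicle replicate 2, at 48.5 CPM against 6.32 to 19.6 CPM elsewhere, and so was Mki67, a marker of dividing cells, at 119 CPM against 19.0 to 65.3 CPM. The 9 genes of the bone and cartilage list summed to 89.2 CPM in SCI + Vehicle replicate 2 and in SCI + Atorvastatin replicate 2. They summed to 32.6 to 51.1 CPM in the other 12 mice. The 3 of these genes that were used had a median r of -0.21. Col1a1 was also the highest of its group in each of these 2 mice. The bone content of these libraries was not tested. Genes of lymphocytes gave few counts. The 11 T and NK cell genes summed to 4.09 to 24.9 CPM, and the 6 B and plasma cell genes in the file to 0.816 to 23.1 CPM, and none was used.

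Transcripts of the translation machinery also moved together. All 190 pairs of 20 cytosolic ribosomal protein genes were positive, with a median r of 0.77 ± 0.063, 0.87 within SCI + Atorvastatin and 0.68 within SCI + Vehicle mice. They varied little, with a median residual SD of 0.18 log2 units. Rpl5 was 332 to 441 CPM in the SCI + Atorvastatin group and 340 to 433 CPM in the SCI + Vehicle group. The 19 nuclear genes of oxidative phosphorylation had a median r of 0.50 ± 0.16. The 9 nuclear long noncoding RNAs, Malat1 and Neat1 among them, had 0.55 ± 0.18 and were opposed to the ribosomal protein genes at a median r of -0.54, -0.76 within SCI + Atorvastatin and -0.35 within SCI + Vehicle mice. Kcnq1ot1, an imprinted antisense RNA that stays in the nucleus, was 246 to 457 CPM in the SCI + Atorvastatin group and 218 to 409 CPM in the SCI + Vehicle group.

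Ribosomal protein genes loaded on PC2 at a median r of 0.70, on PC3 at 0.44 and on PC1 at -0.057. The signs of PC2 and PC3 were set so that the median r of these genes is positive. Oxidative phosphorylation genes loaded on PC2 and PC3 at 0.64 and 0.24, and the long noncoding RNAs at -0.40 and -0.63. The highest PC2 scores, 22.7 and 19.5, were those of SCI + Vehicle replicates 7 and 1, with ribosomal list means of 0.22 and 0.065. PC2 was led by Neb, Sdhaf4 and Ucp3 at its positive end and by Lrrc29, Klf2 and Lyl1 at its negative end. The positive end of PC3 was led by Ttn, Myh7 and Neb. Over 11918 genes with an annotated transcript, the correlation with PC2 had a Spearman rho of -0.34 with transcript length and -0.25 with GC content, and the correlation with PC1 one of -0.006 with length and 0.25 with GC content. The median longest transcript was 1057 bases for the ribosomal protein genes, 8089 for the long noncoding RNAs and 3414 for all genes used. The part of length and GC content in these components was not tested.

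Start sites of ribosomal protein genes are shown because a run of pyrimidines at the first base is the known translational control element of this family. In RefSeq promoter windows of GRCm38.p6, a run of at least 8 pyrimidines touching the annotated start or the 3 bases on either side was sought. It was present in 4 of 13 listed genes with a window (30.8%) and in 7.89% of 32851 windows. Counted by gene, as for the list, it was present in 10.6% of the 9408 genes used that had a window. The search was chosen after the values were seen. The windows run 5′ to 3′ over 24 bases on the coding strand and the run is in capitals.
Rps6, chr4:86857356-86857379, minus strand: cggaagtcgggCCTCTTTTTCgtg
Rpl18, chr7:45718059-45718082, plus strand: gtctcgcaggccgCTCTTTCCCCg
Rps24, chr14:24490666-24490689, plus strand: gcgctggggTCCTTCCTTgcgcgt
Rps18, chr17:33955654-33955677, minus strand: gtcacttccgCTCTCTCTTCCaca

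For the interferon list the response element TTTCNNTTT was sought on both strands in the 300-base windows. It was present in 8 of 10 listed genes with a window, beside 12.1% of all genes with a window. Only 2 of these 10 genes were used, of which 1, Ifit3, held it. The element of Ifit3 is in capitals at chr19:34583399-34583422 (plus strand).
Ifit3: taagtctgTTTCAGTTTctacttt
The E-box CACGTG was present in 4 of 9 genes of the clock output list, Per1, Ciart, Tef and Bhlhe41. It was present in 1 of 5 genes of the Bmal1 phase, beside 11.7% of the genes used that had a window. The element TGACGTCA was present in 2 of 10 immediate early genes, Dusp1 and Btg2, beside 2.03% of all genes with a window. Both were among the 7 of these genes that were used, beside 3.60% of genes used. These lists moved together little, at a median r of 0.23 ± 0.18 for clock output, 0.027 ± 0.11 for the Bmal1 phase and -0.033 ± 0.065 for immediate early genes. A match describes letters in a window and names no site.

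**Figure D5:**
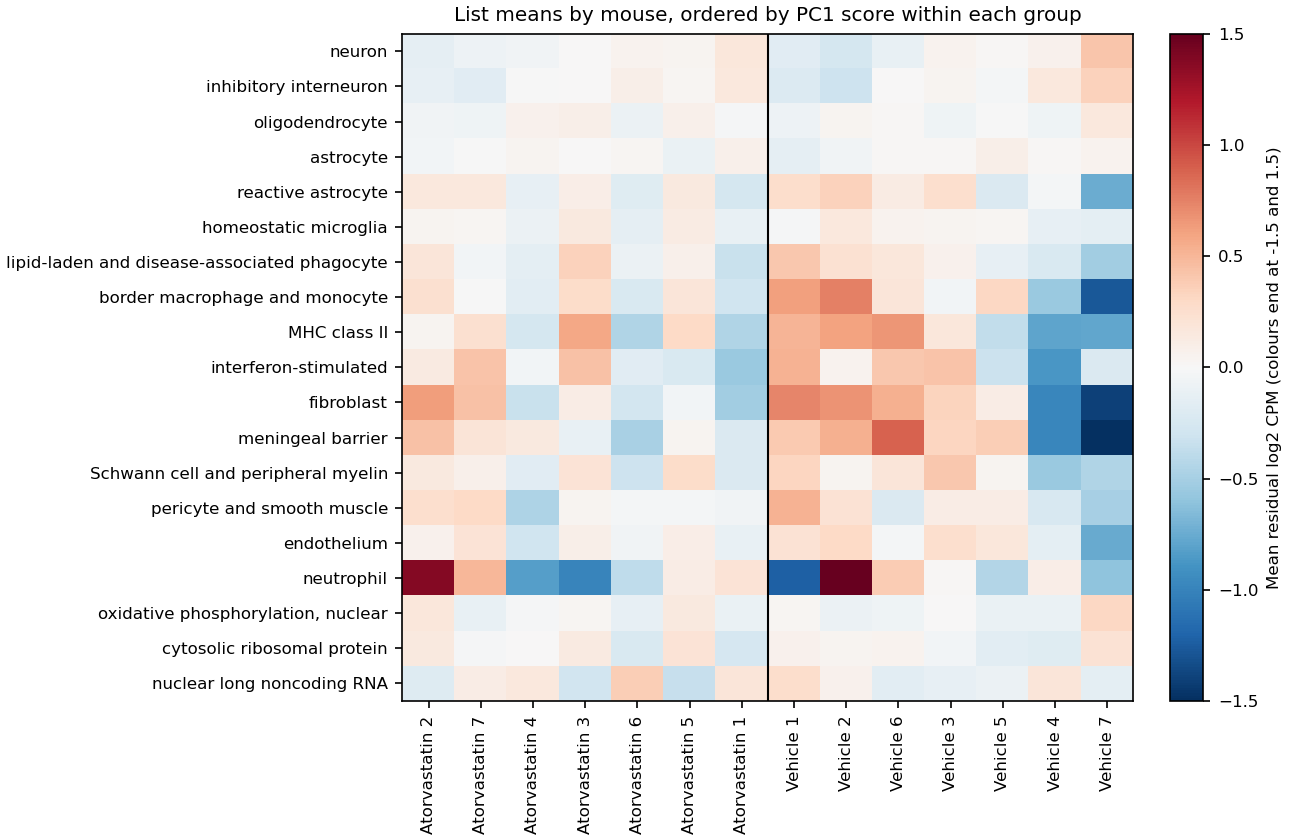
Mean residual log2 CPM of the genes of 19 lists in each injured mouse, ordered by PC1 score within each group (colours end at -1.5 and 1.5). The fibroblast list mean runs from -1.40 in SCI + Vehicle replicate 7 to 0.73 in replicate 1, and the neutrophil list is highest, at 1.78, in SCI + Vehicle replicate 2.

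The figure of list means shows how wide each group of cells ranged. The fibroblast mean spanned -0.52 to 0.63 log2 units in the SCI + Atorvastatin group and -1.40 to 0.73 in the SCI + Vehicle group. The neuronal mean spanned -0.14 to 0.17 and -0.27 to 0.42, and the neutrophil mean -0.99 to 1.37 and -1.23 to 1.78. The oligodendrocyte mean stayed within -0.088 to 0.15 in all 14 mice. Genes of Hox groups 4 to 8, which mark the level along the cord, had a median r of 0.21 ± 0.099 with means of -0.19 to 0.29, and those of Hox groups 9 and 10 had a median r with fibroblast genes of -0.43, and of -0.24 without SCI + Vehicle replicates 4 and 7.

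Genes were then tested one by one against a marker of each cell type, with edgeR's quasi-likelihood test of the slope on the residual of the marker, Benjamini-Hochberg adjusted over all genes. A slope of 1 means that a gene changes by 1 log2 unit with 1 log2 unit of the marker. Col1a1, a chain of type I collagen (chr11:94936224-94953042), was 105 to 590 CPM in the SCI + Atorvastatin group (median 276) and 47.1 to 389 CPM in the SCI + Vehicle group (median 153). With Col1a1, 219 of 12305 genes were called higher (1.78% of those tested) and 64 lower (0.52%). Col1a2, the other chain of the same collagen, had a slope of 0.81 (SE 0.057, adjusted p = 5.4e-09). It was followed by the growth factor gene Igf1 at 0.45 (SE 0.066, adjusted p = 0.0018), the membrane-binding annexin Anxa2 at 0.36 (SE 0.053) and Cd74 at 0.72 (SE 0.11), and by Cald1, a regulator of contraction, at 0.37 (SE 0.056).

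These calls rested on a mouse with little scar and nerve RNA. Without SCI + Vehicle replicate 7 there were 17 higher and 1 lower, all among the 283 of the full set, Col1a2, Col5a2, Anxa2, Cd74, Mki67, Igf1 and Ngp first. Without SCI + Vehicle replicates 4 and 7 there were 3, Col1a2, S100a9 and Ngp. With DESeq2 586 genes were called and with the replicate block 87. Leaving out SCI + Vehicle replicate 2 gave 119 calls, replicate 4 gave 150, SCI + Atorvastatin replicate 7 gave 167, and SCI + Atorvastatin replicate 1 or SCI + Vehicle replicate 3 gave 180 each, while leaving out SCI + Atorvastatin replicate 4 gave 509. Within the groups Col1a2 correlated with Col1a1 at r = 0.96 within SCI + Atorvastatin and 0.98 within SCI + Vehicle mice, Anxa2 at 0.87 and 0.90, and Cd74 at 0.81 and 0.87.

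By list, 8 of 10 other fibroblast genes were called higher with Col1a1, among them Col3a1, Dcn, Postn and Fn1, beside 1.78% of all genes. The calls also took in 2 of 3 meningeal genes (Ptgds and Igfbp2), 3 of 6 MHC class II genes (H2-Aa, H2-Ab1 and Cd74) and 2 of 3 neutrophil genes (Ngp and Ltf). They took in 3 of 15 genes of lipid-laden phagocytes (Clec7a, Cd63 and Igf1), 2 of 11 of reactive astrocytes (Vim and Cp) and 2 of 6 of Schwann cells (Pmp22 and Drp2). Vascular genes were called too, 3 of 11 of endothelium (Cdh5, Abcb1a and Itm2a) and 2 of 8 of pericytes and smooth muscle (Acta2 and Pdgfrb). So were 1 of 5 border macrophage genes (Mrc1), 1 of 4 proliferation genes (Mki67) and the red cell gene Alas2. Without SCI + Vehicle replicate 7, the calls kept 3 fibroblast list genes, Col1a2, Col6a3 and Col3a1. Of the other list genes called higher, Cd74, Igf1, Ngp and Mki67 remained. The meningeal, reactive astrocyte, Schwann cell, endothelial, pericyte, border macrophage and red cell genes named here were no longer called. None of 11 homeostatic microglia genes was called by edgeR, although all 11 slopes were positive. The list medians of the slope were 0.50 for fibroblast, 0.19 for phagocyte and 0.094 for homeostatic microglia genes, and -0.003 over all genes.

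The lower calls with the smallest p were led by Lrrc7. Lrrc7, a scaffold of postsynaptic densities, had a slope of -0.25 (SE 0.049, adjusted p = 0.0086), Rasgrf1, a calcium-dependent exchange factor for Ras, one of -0.18 (SE 0.034) and Atp2b3, a calcium pump of the plasma membrane, one of -0.20 (SE 0.038). Kifc2, a kinesin, and Tbc1d30 followed. Of 15 neuronal list genes 3 were called lower, Syt1, Syp and Eno2, beside 0.52% of all genes, and all 15 slopes were negative with a median of -0.14. Slc17a6 and Glra1 were the only members of the 2 interneuron lists that were called. Without SCI + Vehicle replicate 7, only Rasgrf1 of these lower genes was still called.

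Snap25, a presynaptic protein of vesicle release (chr2:136713439-136782428), was 1105 to 1426 CPM in the SCI + Atorvastatin group and 1197 to 1878 CPM in the SCI + Vehicle group. With it, 4 of 12305 genes were called higher (0.0325%) and 6 lower (0.0488%). Higher were Ckmt1, the mitochondrial creatine kinase (slope 1.25, SE 0.19, adjusted p = 0.0079), Cdr1, Rwdd2a and Vsnl1, a neuronal calcium sensor. Lower were Marveld1 (slope -3.26, SE 0.46, adjusted p = 0.0063), Nbl1, which binds bone morphogenetic proteins, the receptor gene Notch2, Sh3pxd2a, Fnip2 and Kctd12. Without SCI + Vehicle replicate 7, which had the highest Snap25, edgeR called none (898 genes at an unadjusted p under 0.05), while 603 genes were called without SCI + Vehicle replicate 1, 38 without replicate 4, 16 without SCI + Atorvastatin replicate 6 and 6 without replicate 7. DESeq2 called 209, and with the replicate block only Marveld1 was called. No list gene was called with Snap25.

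For the other markers edgeR called no gene. At an unadjusted p under 0.05 there were 330 genes with Mog (oligodendrocyte), 602 with Aqp4 (astrocyte), 876 with Cx3cr1 (microglia), 645 with Ccdc153 (ependyma) and 815 with Dbp (clock output), and 678 with library size. DESeq2 called 1, 2, 21, 0 and 0 genes with these 5 markers in that order, and 1 with library size. Mog was 88.1 to 112 CPM in SCI + Atorvastatin mice and 84.4 to 114 CPM in SCI + Vehicle mice, a narrow range for a slope. With no filter on counts 28 genes were lower with Mog. Neb, Ttn, Myh7, Nrap and 3425401B19Rik were lower with it without SCI + Atorvastatin replicate 6, 4 muscle genes were lower without SCI + Vehicle replicate 6 and Neb without replicate 5. Without SCI + Vehicle replicate 7 the gene Uaca was called with library size. Without SCI + Vehicle replicate 4 there were 2 calls with Cx3cr1, Cspg4 and Man1c1, and without replicates 4 and 7 there were 52, all higher.

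Marker genes were also correlated in pairs. Of 21 pairs of 7 markers none passed an adjusted p of 0.05 in the two-sided permutation test within groups. The strongest was Snap25 with Col1a1, at r = -0.66 (permutation p = 0.020, adjusted p = 0.43) and rho = -0.71 (permutation p = 0.010, adjusted p = 0.21). It was -0.68 among SCI + Atorvastatin mice, -0.66 among SCI + Vehicle mice, and -0.65 without SCI + Vehicle replicates 1 and 7, the mice farthest from the median of Snap25. Snap25 with Cx3cr1 was r = -0.48 (permutation p = 0.12, adjusted p = 0.69) and rho = -0.23 (permutation p = 0.47, adjusted p = 0.84). Its r was 0.13 in the SCI + Atorvastatin mice and -0.77 in the SCI + Vehicle mice, and -0.035 without the same 2 mice. Aqp4 with Col1a1 was r = 0.33 (permutation p = 0.24, adjusted p = 0.69) and rho = 0.34 (permutation p = 0.24, adjusted p = 0.83). It was -0.075 among SCI + Atorvastatin mice and 0.82 among SCI + Vehicle mice, and 0.53 without SCI + Atorvastatin replicates 3 and 7.

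Groups of genes were also sought without lists. Among the 2000 genes with the highest residual variance beyond counting error, clustering at r = 0.6 gave 9 modules of at least 20 genes with 494 genes in all. The largest had 256 genes, was led by Mgp, Col3a1, Nid1, Col5a1, Cdh5, Dcn, Efemp1 and Itih2, and correlated with PC1 at r = -0.96. It held 9 fibroblast, 4 border macrophage, 4 endothelial and 3 meningeal list genes. Its mean residual was highest in SCI + Vehicle replicate 1 at 0.55 and lowest in replicate 7 at -1.18. The genes had a median r of 0.50 in the SCI + Atorvastatin mice and 0.83 in the SCI + Vehicle mice.

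A module of 61 genes led by Sema6b, Irf2bp1, Scrt1 and Pcsk1n had r = 0.78 with PC1, and its median r was 0.35 in the SCI + Atorvastatin and 0.85 in the SCI + Vehicle mice. Its mean was lowest in SCI + Vehicle replicate 1, at -1.07. Only 2 of its genes were on a list, 1 of excitatory interneurons and 1 of ependyma. The same module held Rn45s, the ribosomal RNA precursor gene, Mir6236 and Lars2, at r of 0.84, 0.88 and 0.90 with the module mean. Which cell type or RNA content the module marks was not tested. No module held a gene of the neuron or the ribosomal protein list. Modules were sought only among the 2000 genes of highest residual variance. The median residual SD of these 2 lists was 0.20 and 0.18 log2 units, beside 0.24 over all genes. Their absence therefore does not show whether they move together. A module of 35 genes led by Atp6v0d2, Lyz2, Lipa, Gpnmb and Mfge8 held 2 phagocyte and 1 reactive astrocyte list genes. Atp6v0d2, a subunit of the lysosomal proton pump, was 19.5 to 56.1 CPM in the SCI + Atorvastatin group and 19.5 to 45.8 CPM in 6 SCI + Vehicle mice, and 6.25 CPM in replicate 7. One module of 21 genes led by Ifit3, Hacl1, Gbp7, Gbp3 and Fcgr1 held 2 interferon list genes. One of 20 was led by the muscle genes Cmya5, Mybpc1, Tpm2, Casq1 and Srl, and averaged 2.66 log2 units in SCI + Atorvastatin replicate 2. The other 4 modules had 20 to 34 genes, and few of them were on any list.

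Modules were also made within 1 group and measured in the other. The SCI + Atorvastatin mice gave 43 modules, whose median r in the SCI + Vehicle mice ran from -0.029 to 0.39, with 3 at 0.3 or more. Of these 3, one of 55 genes held 5 fibroblast list genes and kept a median r of 0.39, one of 114 genes led by Bnc2, Atoh8 and Serpinh1 held 3 fibroblast genes and kept 0.38, and one of 20 genes led by Trim25 held Usp18 and kept 0.32. The SCI + Vehicle mice gave 29 modules, at -0.033 to 0.20 in the SCI + Atorvastatin mice. With 7 mice a group many gene pairs reach a high r, and 13.6% and 15.5% of all pairs had r of 0.5 or more within the SCI + Atorvastatin and the SCI + Vehicle groups.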

How the data were processed

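Spinal cord RNA was sequenced in 7 SCI + Atorvastatin, 7 SCI + Vehicle and 2 Uninjured Control mice. Per the labels, FastQC 0.12.1, Trimmomatic 0.38, STAR 2.5.4b and RSEM 1.3.1 were used with mm10. The authors deposited counts, as whole numbers for each gene symbol, and TPM, which are scaled for gene length. How RSEM estimates became whole counts is not given in the sources used here, and strand settings are not stated.

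Counts of the 14 injured mice were filtered (50 or more in each), normalized by TMM, turned into log2 CPM with a prior count of 2, and centred within each group. Library size was the sum of all gene counts. Slopes were tested with edgeR 4.0.16 in R 4.3.3, with DESeq2 1.42.0 as an alternative. The test was checked on simulated data with 200 changed genes among 12306 (88.5% recovered, 7.81% false calls). That check used a simulated covariate in place of a marker and drew each gene independently of the others. Recovery and the share of false calls with the measured markers, such as Snap25, Mog and Aqp4, were not tested. Components and correlations were computed with numpy 2.4.6 and scipy 1.17.1 in Python 3.11.15, with 100000 permutations within groups for marker pairs. Permutation p-values are two-sided. Modules came from average linkage on 1 minus r over the genes of highest residual variance. Figures were drawn with matplotlib 3.10.9. Positions are those of GRCm38, the build of mm10, with transcript lengths from GENCODE.

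The members, lists and tests were chosen with earlier results of these data known. Genes named were taken from markers, list genes, the 10 at each end of PC1 to PC3 and the 10 with the highest residual SD. Further ones were taken from the 8 leading each module and the 5 called genes of lowest p, up and down, in a fit. Others, such as Ankrd23, S100a9 beside Ttn, Cspg4, Man1c1 and Uaca, were chosen after their values were seen. Alternatives were other normalization, filters, thresholds, TPM, the replicate block and each mouse left out. Same-numbered mice were not treated as pairs. Mitochondrially encoded genes were not analysed here, and single values of some list genes are not reported here.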

Additional observations from a re-analysis of the deposited data

Results flagged for a closer look

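Within each group of 7 mice, 16 measures were examined for a mouse far from the others (32 groups in all, of which chance would flag about 1 in 20), and 3 were flagged because the gap to the nearest mouse was more than 0.568 of the range of the group. The library size of SCI + Vehicle replicate 4, at 14823292 counts, lay below the next mouse by 0.895 of the range. The same mouse stood apart on PC5, at a score of 19.4 and a gap of 0.621 of the range. Ttn in SCI + Vehicle replicate 3, at 1402 CPM, lay above the next mouse by 0.643 of the log2 range. Whether the low depth of replicate 4 bears on its PC5 score was not tested.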

How the results depend on the processing

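Counts of calls moved with the mice, the test and, for Mog, the filter. Under an adjusted p below 0.01, calls were 3 with Snap25 and 59 with Col1a1. DESeq2 called 209 with Snap25, 586 with Col1a1, 1 with Mog, 2 with Aqp4, 21 with Cx3cr1 and 1 with library size. With the replicate block, 1 gene was called with Snap25, 87 with Col1a1, and 1 marker pair, Snap25 and Cx3cr1, passed. Same-numbered mice correlated at -0.26 to 0.17 and none best with its own number, so numbers do not pair the mice. With Mog, no filter gave 28 calls and a minimum of 10 counts gave 1. Leaving out 1 mouse gave 0 to 603 calls with Snap25, 18 to 509 with Col1a1, 0 to 5 with Mog, 0 to 2 with Cx3cr1 and 0 to 1 with library size. Without SCI + Vehicle replicates 4 and 7, an alternative chosen after seeing the data, calls were 0 with Snap25, 3 with Col1a1, 52 with Cx3cr1 and 2 with Ccdc153. In the same setting the recomputed first component held 19.4%, and 7 lists had a median r of 0.5 or more. PC2 held 12.1% with the minimum of 10 counts, 15.5% on log2(TPM + 1) and 14.98% with genes scaled to unit variance. Modules held 839 genes at r = 0.5, 283 at r = 0.7 and 1089 among 4000 genes. Of 646 list medians recomputed, 14 moved by more than their jackknife SE. The medians with 1 mouse left out also make up that SE and can hardly move beyond it. This count therefore cannot show that the medians are stable. The cause of these differences was not tested beyond the mice or genes that each setting leaves out. The Schwann cell marker could not be fitted, since no candidate had 50 counts in every mouse.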

Other observations

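The globin genes Hba-a1 and Hbb-bs had no counts in any injured mouse but Hba-a1 had TPM above 0 in all 14 and Hbb-bs in 9, up to 518. Hba-a1, an alpha globin gene, was 2707 TPM in SCI + Vehicle replicate 2 and 50.5 to 1290 TPM in the other 13 injured mice, with 1290 TPM in SCI + Atorvastatin replicate 2. The same mice had the highest Ngp, at 62.0 and 50.8 CPM. The injured mice were perfused with saline per the labels.

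Fat genes were highest in the mouse with the most muscle RNA. Fabp4, a fatty acid carrier of adipocytes and capillaries, was 45.5 CPM in SCI + Atorvastatin replicate 2 and 1.41 to 16.2 CPM in the other injured mice, and Adipoq, the adiponectin gene, was 7.29 CPM there and at most 1.51 CPM elsewhere.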
